A study of Homo sapiens with 12 samples.

Results

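RNA pseudouridine synthases are the enzymes that turn uridine into pseudouridine within an RNA chain, and 10 of their genes were followed in a genome-wide knockout screen for growth under disturbed mitochondrial translation. They were taken by name from the 19112 genes of the deposited table and are PUS1, PUSL1, RPUSD3, RPUSD4 and TRUB2, here grouped as enzymes of mitochondrial RNA, and PUS3, PUS7, RPUSD1, RPUSD2 and TRUB1, grouped as enzymes of nuclear or cytosolic RNA. All 10 names matched a row, and each gene was covered by 4 sgRNAs. The grouping by compartment comes from general knowledge and is approximate, because PUS1 also has a nuclear form and the RNAs of RPUSD1, RPUSD2 and PUSL1 are less well known. Nor was it checked whether an enzyme of the second group, such as TRUB1, also acts on mitochondrial RNA.

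The screen used HEK293, a human embryonic kidney cell line, carrying the Brunello library of guide RNAs, in which each cell loses a single gene. After puromycin selection the pool was grown with the ethanol solvent (EtOH), actinonin at 15 µM (ACT), chloramphenicol at 5 µg/mL (CAP) or the combination of these doses (ACT CAP), and was collected on day 15, with 3 replicates per condition and 12 samples in all. All conditions shared medium with glutamine, pyruvate and uridine, and the pool was made in 1 cell line. The table holds no expression values, so the identity of the line was not checked against marker genes. Actinonin blocks removal of the formyl group from new mitochondrial proteins and leads to mistranslation stress, while chloramphenicol stops peptide bond formation on the mitochondrial ribosome.

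Pseudouridine is an isomer of uridine whose base is joined to the sugar through carbon, which adds a hydrogen bond donor and stiffens RNA. Stand-alone synthases find their site by RNA sequence and shape, without a guide RNA, and the 10 genes fall into 4 families named after bacterial enzymes: TruA (PUS1, PUSL1, PUS3), RluA (RPUSD1 to RPUSD4), TruB (TRUB1, TRUB2) and TruD (PUS7). In mitochondria, RPUSD4, RPUSD3 and TRUB2 are found in a module with FASTKD2, NGRN and WBSCR16 that is needed for the rRNA of the large mitoribosomal subunit, and PUS1 modifies mitochondrial tRNAs and is mutated in a myopathy with sideroblastic anaemia.

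Every gene has a beta in each condition, which is how far its guides changed in abundance by the authors' fit (the baseline is not named in the table), and a z, which is that beta over its standard error (SE). A lower value means that more of the gene's guides were lost. Both come from a fit over replicates and guides, so values of single replicates are not shown, and errors are the SE of the fit. Most genes lay below 0, with a median z over all genes of -2.03 in EtOH, and of -1.73, -1.78 and -1.70 under ACT, CAP and ACT CAP. A difference between conditions was tested on beta, divided by the joined SE, centred and scaled on all genes, and is called the Wald difference. It was called where its normal p passed 0.05 after Benjamini-Hochberg adjustment over the whole table. Against EtOH, the smallest Wald difference called was 3.43 in ACT, 3.85 under CAP and 3.82 under ACT CAP. It was 3.53 between ACT and ACT CAP, 4.26 between ACT CAP and CAP, and 3.63 for the interaction of both drugs. The plain difference of z, with 3 as its limit, is given as another measure. The comparisons share conditions, so a low EtOH or a high ACT value enters several of them. The authors set the drug doses for a comparable inhibition of growth, so cells under a drug had fewer doublings than in EtOH. How far this moved betas toward 0 in comparisons against EtOH was not tested.

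In EtOH, 9 of the 10 synthases lay below the median gene. RPUSD4, which modifies the mitochondrial large-subunit rRNA and tRNA, had a z of -11.19, the lowest but 2 of all genes, with a beta of -1.745 ± 0.156 (SE of the fit, here and below). RPUSD3, which acts on mitochondrial mRNA, had a z of -6.91 and a beta of -0.811 ± 0.117, and PUS1 a z of -6.35 and a beta of -0.385 ± 0.061. At most 1.64% of genes had a lower z than any of these 3, and 0.0105% a lower z than RPUSD4. By beta 0.0209% of genes lay below RPUSD4, 2.28% below RPUSD3 and 12.0% below PUS1. The SE of PUS1 was small, with 14.5% of genes at a lower SE, and the betas of TRUB2 and PUS3 were lower than its own. TRUB2, a second enzyme of mitochondrial mRNA, followed with a z of -5.02 and a beta of -0.734 ± 0.146, and PUSL1, a PUS1-like mitochondrial protein, with a z of -3.0 and a beta of -0.234 ± 0.078. Among the nuclear or cytosolic enzymes PUS3, which modifies the anticodon arm of tRNAs, was lowest with a z of -5.16 and a beta of -0.443 ± 0.086. The z was -4.11 for RPUSD1, -3.59 for PUS7, an enzyme of tRNA and mRNA, and -3.17 for TRUB1, which modifies the T loop of tRNAs. RPUSD2 stood apart with a z of -0.83 and a beta of -0.074 ± 0.089, above 79.7% of genes. The median z was -6.35 for the 5 mitochondrial and -3.59 for the 5 other enzymes, and the groups overlapped.

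**Figure D1:**
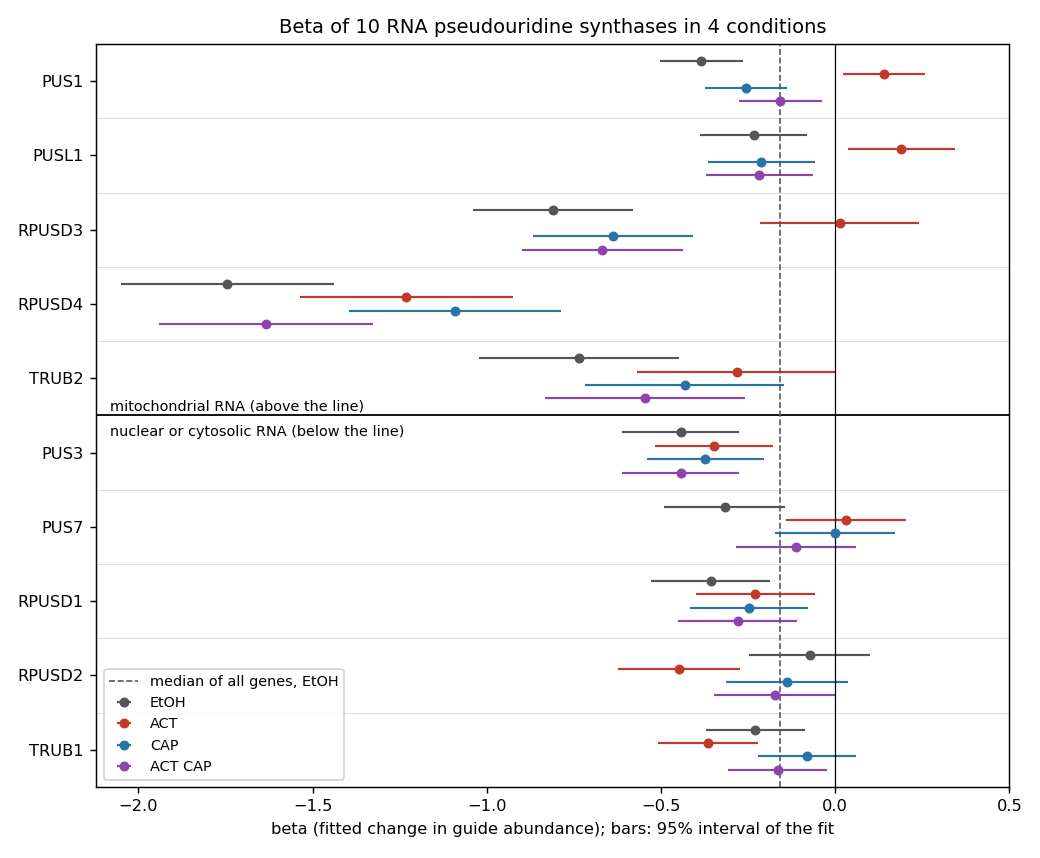
Beta of the 10 synthases (horizontal axis, no unit) in EtOH, ACT, CAP and ACT CAP, with bars for the 95% interval of the fit; the solid vertical line is 0 and the dashed line the median of all genes in EtOH. In ACT the points of PUS1, PUSL1 and RPUSD3 stand to the right of their other 3 conditions, at 0.1395, 0.190 and 0.012, whereas RPUSD2 stands to the left at -0.447.

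Actinonin raised 3 synthases over EtOH, all of mitochondrial RNA, and lowered 1 of the others. Over all genes 1.08% were called higher and 0.157% lower, 1.23% in all, against 4 of the 10 synthases. The members were chosen with earlier results of these data known, so such counts are descriptions. PUS1 had a beta of -0.385 in EtOH, 0.1395 in ACT, -0.256 under CAP and -0.158 under ACT CAP, so it lay above 0 in ACT alone. From EtOH to ACT its beta rose by 0.524 (95% interval 0.356 to 0.692) and its z by 8.66, from -6.35 to 2.31, with a Wald difference of 6.64 that ranked 8 from the top among 19111 genes. RPUSD3 had a beta of -0.811 in EtOH, 0.012 in ACT, -0.638 under CAP and -0.668 under ACT CAP. Its rise of 0.823 (0.50 to 1.146) took the z from -6.91 to 0.11, with a Wald difference of 5.37 at rank 28. PUSL1 had betas of -0.234, 0.190, -0.212 and -0.217 in the same order, which puts EtOH, CAP and ACT CAP within 0.023 of each other and ACT apart. Its z went from -3.0 to 2.44, a rise of 0.424 in beta (0.208 to 0.641), with a Wald difference of 4.08 at rank 96. The call of PUSL1 was lost against an unscaled normal null (3.63), and those of PUS1 (5.90) and RPUSD3 were not. In ACT, PUSL1 and PUS1 lay above 99.2% and 99% of all genes by z. Both these z values stood as calendar dates in the table and were recomputed from the deposited Wald p-value, while their betas were intact.

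RPUSD4 and TRUB2, the remaining enzymes of mitochondrial RNA, were not called in ACT. RPUSD4 had a beta of -1.745 in EtOH, -1.232 in ACT, -1.091 under CAP and -1.633 under ACT CAP. It stayed among the lowest genes of the screen throughout, with at most 0.230% of genes at a lower z in each condition, and it had the lowest z of all genes in ACT CAP, -10.44. Its beta difference between ACT and EtOH, 0.513 (0.081 to 0.945), was close to the 0.524 of PUS1, but the SE of RPUSD4 in EtOH was 0.156 against 0.061 for PUS1, and the Wald difference was 2.37. The SE of RPUSD4 was larger than that of 94.9% of genes. TRUB2 had betas of -0.734 in EtOH, -0.283 in ACT, -0.432 under CAP and -0.546 under ACT CAP. Its difference of 0.451 (0.047 to 0.855) between ACT and EtOH gave a Wald difference of 2.22, again with a large SE of 0.146 in EtOH. By the difference of z, RPUSD4 at 3.28 and TRUB2 at 3.07 lay just past 3. By that measure all 5 enzymes of mitochondrial RNA and PUS7 lay at 3 or more, as did 4.02% of all genes, and RPUSD2 lay at -3 or less, as did 0.769%.

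RPUSD2 fell in ACT. Its beta was -0.074 in EtOH, -0.447 in ACT, -0.138 under CAP and -0.173 under ACT CAP, so ACT was the condition in which it stood lowest, above 3.44% of genes by z. Its beta fell by 0.373 from EtOH to ACT (95% interval -0.620 to -0.127) and its z went from -0.83 to -5.00, with a Wald difference of -3.59 at rank 26 from the bottom. This call was close to its threshold and was lost at an adjusted p of 0.01. TRUB1 had its lowest beta in ACT too, -0.365 against -0.229 in EtOH, -0.081 under CAP and -0.165 under ACT CAP, but its difference from EtOH was within the error (-0.136, interval -0.337 to 0.065, Wald difference -1.74). PUS7 had a beta of -0.317 in EtOH, 0.030 in ACT, 0.0006 under CAP and -0.112 under ACT CAP. Its differences from EtOH of 0.348 in ACT (Wald difference 2.89) and 0.318 in CAP (3.29) were not called, though both z differences, 3.94 and 3.60, were past 3. PUS3 and RPUSD1 had betas between -0.444 and -0.348 and between -0.357 and -0.229 in the 4 conditions, and no interval of a difference between neighbouring conditions left out 0.

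Chloramphenicol alone raised 1 synthase, RPUSD4, where 0.188% of all genes were called higher and 0.0628% lower, 0.251% in all. Its beta rose by 0.654 (95% interval 0.222 to 1.085), its z from -11.19 to -7.02, and the Wald difference was 3.87, against a smallest called value of 3.85. The call ended at an adjusted p of 0.01, and the Wald difference was 2.64 after a running median over the EtOH z was removed. By the z difference RPUSD4 (4.16) and PUS7 (3.60) lay at 3 or more, as did 1.13% of genes, and none lay at -3 or less (0.183% of genes). PUS1, RPUSD3 and PUSL1, the members called higher in ACT, had Wald differences of 1.82, 1.18 and 0.01 in CAP, and TRUB2 had 1.77. The other 5 enzymes lay between -1.0 for RPUSD2 and 3.29 for PUS7.

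With both drugs, no synthase was called against EtOH (over all genes 0.194% were higher and 0.0837% lower, 0.277% in all). The largest value was that of PUS1, with a beta difference of 0.227 (95% interval 0.059 to 0.395), a z difference of 3.75 and a Wald difference of 3.36. It was the only member with an unadjusted normal p under 0.05, and the only one at a z difference of 3 or more, where 1.27% of genes lay. None lay at -3 or less (0.188% of genes). RPUSD3, TRUB2, RPUSD4 and PUSL1 had Wald differences of 0.86, 0.92, 0.36 and -0.14. The interval of the beta difference was -0.182 to 0.468 for RPUSD3 and -0.200 to 0.233 for PUSL1, so a shift of the size seen in ACT alone was outside the interval in both.

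**Figure D2:**
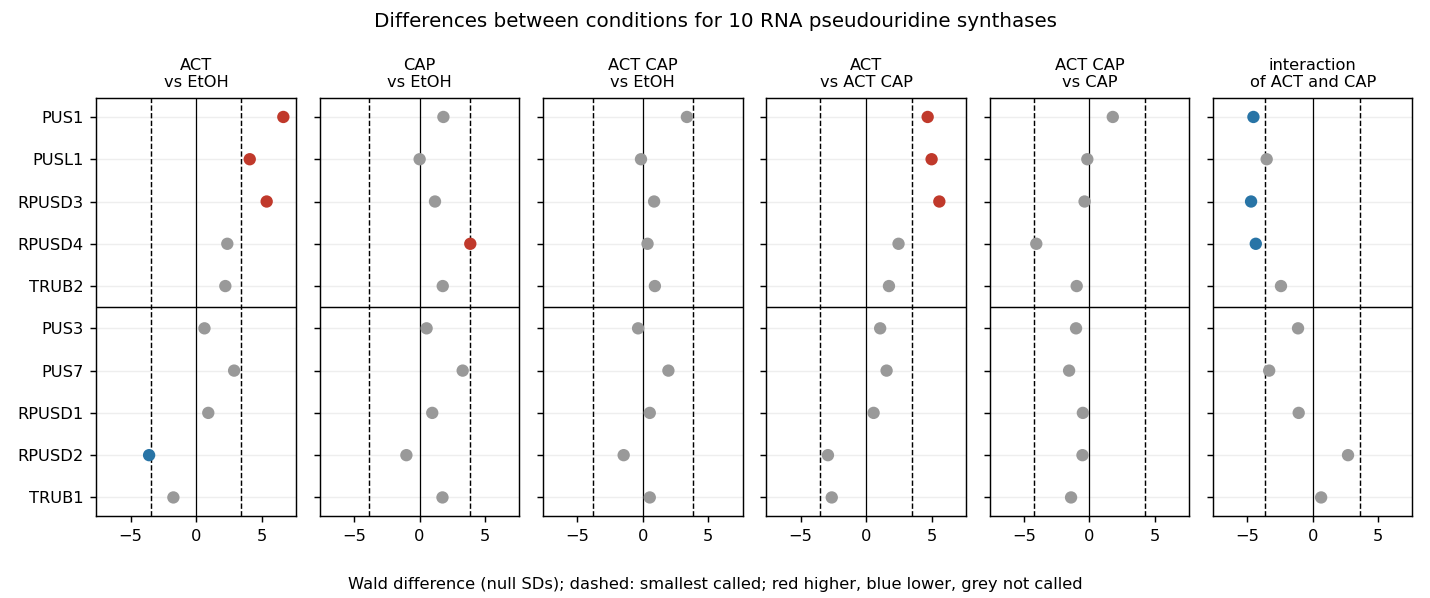
Wald difference (horizontal axis, in SDs of the null over all genes) of each synthase in the 5 comparisons of conditions and the interaction; dashed lines mark the smallest called value, red points were higher, blue lower and grey not called. All 7 red points stand above the horizontal line, among enzymes of mitochondrial RNA, and the panels of ACT CAP against EtOH and against CAP hold grey points alone.

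Set against ACT CAP, ACT had 3 synthases higher and none lower, with 0.534% and 0.288% of all genes called, 0.822% together. These were RPUSD3, with a beta difference of 0.680 (95% interval 0.357 to 1.003) and a Wald difference of 5.58 at rank 11 of 19111 genes, PUSL1, with 0.408 (0.191 to 0.624) and 4.99 at rank 24, and PUS1, with 0.297 (0.129 to 0.465) and 4.69 at rank 30. Against an unscaled normal null RPUSD3 alone was called, and PUSL1 (3.70) and PUS1 (3.48) were not. Their order differed from that against EtOH, where PUS1 was first, and PUS1 had a higher beta in ACT CAP than in EtOH, without a call. RPUSD4 and TRUB2 gave 2.47 and 1.74 and were not called. At the other end RPUSD2 and TRUB1 had Wald differences of -2.91 and -2.62, with 0.607% and 0.989% of genes lower, without a call. By the z difference 3 synthases lay at 3 or more, as did 1.25% of genes, and RPUSD2 at -3 or less, as did 0.665%. PUS3, PUS7 and RPUSD1 lay between 0.57 and 1.56.

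**Figure D3:**
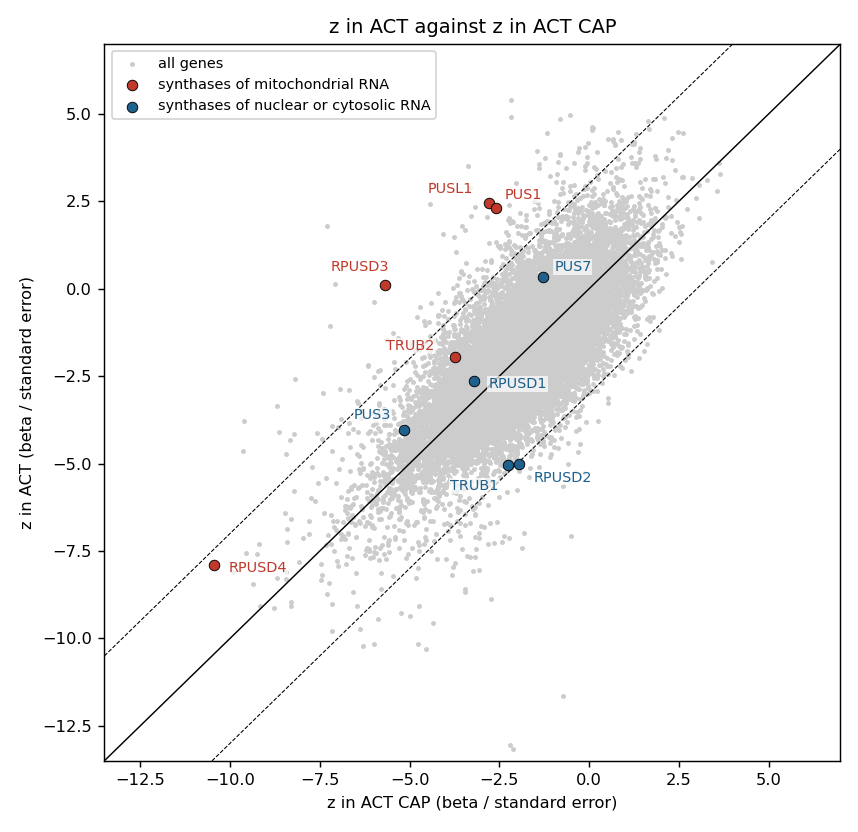
z in ACT (vertical axis) against z in ACT CAP (horizontal axis) for all genes (grey), synthases of mitochondrial RNA (red) and of nuclear or cytosolic RNA (blue); the solid line marks equal z and the dashed lines a difference of 3. RPUSD3, PUSL1 and PUS1 stand above the upper dashed line with differences of 5.80, 5.22 and 4.91, RPUSD2 lies just past the lower one at -3.06, and RPUSD4 is the leftmost gene.

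Adding actinonin to chloramphenicol called no synthase, with 0.0209% of all genes higher and 0.0262% lower, 0.0471% in all. RPUSD4 came nearest: its beta went from -1.091 in CAP to -1.633 in ACT CAP, a difference of -0.542 (95% interval -0.974 to -0.110) with a Wald difference of -4.05, the 10th lowest of all genes and short of the 4.26 needed. It alone had an unadjusted normal p under 0.05, and it alone lay at a z difference of -3 or less (0.157% of genes), with none at 3 or more (0.0889%). The interaction asks whether the change from CAP to ACT CAP differed from that from EtOH to ACT. It was lower for 3 synthases, all of mitochondrial RNA, and higher for none, against 0.513% and 0.0994% of all genes, 0.612% together. RPUSD3 had an interaction beta of -0.853 (-1.312 to -0.395, Wald -4.70), PUS1 of -0.426 (-0.663 to -0.188, Wald -4.52) and RPUSD4 of -1.055 (-1.667 to -0.444, Wald -4.34). None of the 3 was called against an unscaled normal null. The betas behind these terms were arranged differently. RPUSD3 and PUS1 had their highest beta in ACT, apart from the other 3 conditions, whereas RPUSD4 had its higher betas with each drug alone, -1.232 and -1.091, and with the combination lay within 0.112 of EtOH. No interval between conditions of RPUSD4 that neighbour in the order of beta left out 0. Those between its other pairs did: 0.081 to 0.945 from EtOH to ACT, 0.222 to 1.085 from EtOH to CAP, and -0.974 to -0.110 from CAP to ACT CAP. PUSL1 (Wald -3.51) and PUS7 (-3.32) were short of the smallest called value. By the z difference 6 synthases lay at -3 or less, as did 5.50% of genes, and RPUSD2 at 3 or more, as did 1.67%.

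Within each family with several members, the values in ACT were spread. In the TruA family the Wald difference from EtOH was 6.64 for PUS1 and 4.08 for PUSL1 but 0.63 for PUS3. In the RluA family it ran from -3.59 for RPUSD2 through 0.92 for RPUSD1 and 2.37 for RPUSD4 to 5.37 for RPUSD3. In the TruB family it was 2.22 for TRUB2 and -1.74 for TRUB1. All 5 enzymes grouped under mitochondrial RNA had a positive value, with a median z difference of 5.44, against 1.11 for the 5 others and 0.32 over all genes. Of the 5 others, 3 had a positive Wald difference too. The split rests on the approximate grouping, in which TRUB1, at -1.74, is placed with the others.

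Of the 3 partners of RPUSD3, RPUSD4 and TRUB2 in the mitochondrial rRNA module, 1 was called higher in ACT and none lower. Over all genes 1.08% were called higher and 0.157% lower. FASTKD2, an RNA-binding protein of large-subunit assembly, rose in ACT from a z of -3.68 to 2.09 (Wald difference 4.35), with -1.85 under CAP and -0.65 under ACT CAP. NGRN, neugrin, had z values of -3.77 in EtOH, -0.02 in ACT, -2.32 with CAP and -2.65 with ACT CAP, and its difference in ACT was not called (2.74). WBSCR16, also known as RCC1L, was low throughout, with -6.84, -7.31, -5.30 and -7.19, and had a Wald difference of -0.66 in ACT. None of the 3 was called in any other comparison, where 0.0471% to 0.822% of all genes were.

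Other pseudouridine enzymes gave no call. PUS10, related to archaeal synthases, had z values of -3.24 in EtOH, 1.21 in ACT, and -1.19 and -1.37 with CAP and ACT CAP, and its Wald difference of 3.29 in ACT was short of the threshold. PUS7L, related to PUS7, had -3.05, -4.06, -2.52 and -2.66. The box H/ACA complex, in which the synthase DKC1 is guided by small nucleolar RNAs to sites in cytosolic rRNA, was represented by DKC1, NHP2, NOP10, GAR1 and the assembly factors NAF1 and SHQ1. Of these 6 genes none was called in ACT, where 1.23% of all genes were. None had an unadjusted normal p under 0.05 there (7.74% of all genes did), and the Wald differences ran from -0.89 to 1.39. Their median z was -3.94 in EtOH and -3.31 in ACT.

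Lists of other genes of RNA modification were chosen with earlier results of these data known, so their counts are descriptions. Among them, calls in ACT were found in mitochondrial tRNA modification, where 4 of 18 were higher and none lower, against 1.08% and 0.157% of all genes. They were GTPBP3 and TRMU, which modify the wobble uridine (Wald differences 5.56 and 4.52), OSGEPL1, which forms threonylcarbamoyl adenosine (4.38), and DUS2, a dihydrouridine synthase named after its value was seen (4.12). The list's median z difference was 0.89. Of 8 genes of mitochondrial rRNA methylation none was called, 4 had an unadjusted normal p under 0.05 (7.74% of all genes did), and the median z difference was 2.67, with RNMTL1 (MRM3), named after its value was seen, highest at a Wald difference of 3.18. Of 29 genes of cytosolic tRNA modification none was called, 3 had an unadjusted normal p under 0.05, and the median z difference was 0.35, near the 0.32 of all genes. The split of the tRNA lists by compartment comes from general knowledge and is approximate. DUS2 was placed in the mitochondrial list, whereas other dihydrouridine synthases, none of them called, were placed in the cytosolic list. The counts of calls in the 2 tRNA lists depend on that placing. Against ACT CAP, GTPBP3 and TRMU were again higher in ACT (5.01 and 4.33), 2 of 18 where 0.534% of all genes were. The interaction was lower for GTPBP3 (-4.08) and OSGEPL1 (-3.70), 2 of 18 where 0.513% of all genes were. No gene of these 6 lists was called in CAP, in ACT CAP against EtOH, or in ACT CAP against CAP. At an unadjusted normal p under 0.05 the mitochondrial tRNA list had 4, 1 and 4 genes in those comparisons, the cytosolic list 4, 4 and 2, rRNA methylation 1, 1 and 1, the module partners 0, 1 and 1, and the others 0. The shares of all genes past it were 6.84%, 6.76% and 6.21%.

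**Figure D4:**
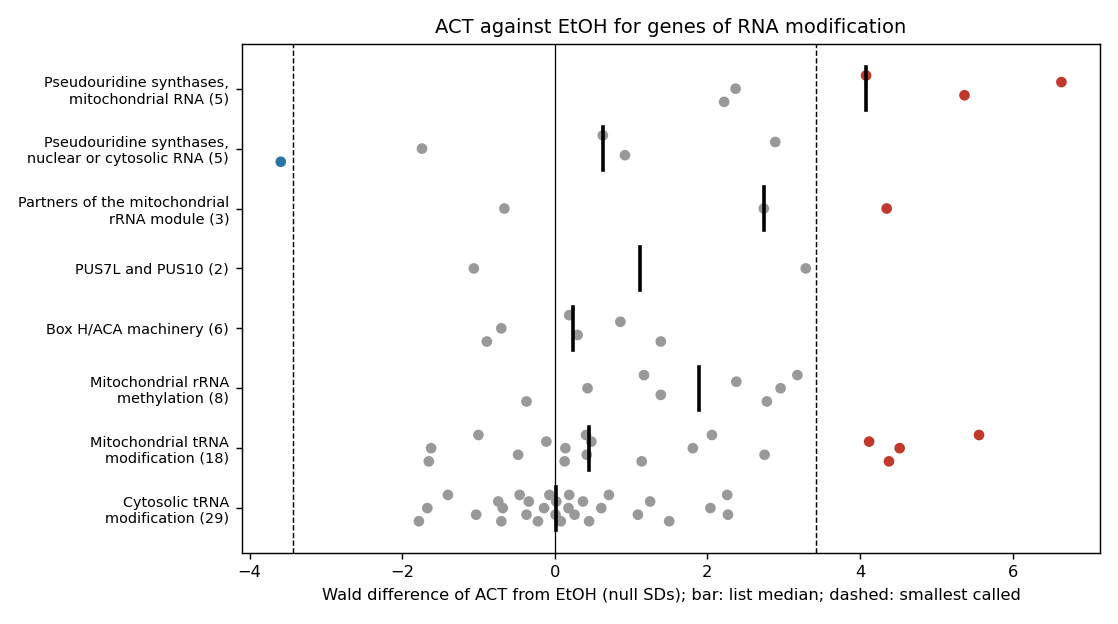
Wald difference of ACT from EtOH (horizontal axis, SDs of the null) for each gene of the 2 synthase groups and 6 other lists, with the number of genes in brackets; black bars are list medians, dashed lines the smallest called value, and vertical scatter within a list has no meaning. Medians run from 0.02 for cytosolic tRNA modification to 4.08 for the synthases of mitochondrial RNA.

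The genes nearest to a called synthase over the z of the 4 conditions (Euclidean distance, a description with 4 points per gene) were as follows. Nearest to PUS1 were GTPBP3 (distance 1.58), the v-ATPase subunit ATP6V1C1 (1.64) and the deubiquitinase USP10 (1.73). RPUSD3 was closest to GTPBP8 (1.44), a mitochondrial GTPase, and to the mitoribosomal proteins MRPL27 (1.66) and MRPL21 (2.21). RPUSD4 was closest to C10orf2 (1.56), the mitochondrial DNA helicase Twinkle, to the elongation factor TUFM (2.21) and to the phosphatase PTPMT1 (2.86). PUSL1 had ECHS1, an enoyl-CoA hydratase (0.76), LOC730183 (0.84) and TOX4 (0.95) nearest. Around RPUSD2 were PNPLA8, a phospholipase (0.58), KLHL14 (0.59) and RIOK3 (0.63), with z values in ACT of -4.62, -4.54 and -5.33.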

How the data were processed

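Reads of guides from the 12 samples were trimmed together by the authors and, per the submitters' processing notes, analysed with MAGeCK (its version and the aligner are not given in the sources used here), which gave a table of 19112 genes. Its beta and z per condition are scores of a maximum likelihood fit over replicates and guides, deposited as such by the authors together with a Wald p-value. The methods instead describe averaged and z-scored guide fold changes. Their other p-values and FDRs were not used. Read counts per sample were not used here, so precision is that of the SE. Calendar dates replaced 1146 of 76448 deposited z values, among them those of PUS1 and PUSL1 in ACT, and these were rebuilt from the Wald p-value with the sign of the beta. TSC2, whose ACT beta was a date, was left out of ACT comparisons.

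SE was beta over z. Each beta difference was set over the root of the summed squares of the SEs it holds (2 conditions, or all 4 for the interaction, the change from CAP to ACT CAP minus that from EtOH to ACT), the median of all genes was subtracted, and the result was divided by 1.4826 times their median absolute deviation (0.618 to 0.888), with a 2-sided normal p adjusted by the Benjamini-Hochberg method. Because the differences over all genes spread less than under an unscaled normal null (0.618 to 0.888), the intervals, which are unscaled, may be too wide. Why they spread less was not tested. The methods call the 3 replicates independent, and tests here rest on the error of the fit, not on values per replicate. No p is printed for a single gene. Named genes were all members, the 3 module partners, PUS7L and PUS10, the 2 called genes of largest absolute Wald difference per remaining list, comparison and direction, and the 3 nearest genes of each called member. DUS2 and RNMTL1 were named beyond this rule, after their values were seen, and the 6 box H/ACA genes are named as the content of their list. Members and lists were chosen with earlier results of these data known. Alternatives were an adjusted p of 0.01, an unscaled normal null, z differences of 3 (plain, centred or standardised) and 4, running medians over 501 genes ranked by z, genes with exactly 4 sgRNAs, and genes without date cells. The software was Python 3.11.15 with scipy 1.17.1, numpy 2.4.6, pandas 2.3.3 and, for figures, matplotlib 3.10.9. Symbols were matched to RefSeq (GRCh38.p14) for names alone.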

Additional observations from a re-analysis of the deposited data

Results flagged for a closer look

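The effect of ACT differed with and without CAP for 3 synthases, by the contrast of the 4 deposited betas, centred and scaled on all genes: RPUSD3 (Wald -4.70), PUS1 (Wald -4.52) and RPUSD4 (Wald -4.34). For RPUSD3 the beta change was 0.823 from EtOH to ACT and -0.030 from CAP to ACT CAP, for PUS1 it was 0.524 and 0.099, and for RPUSD4 0.513 and -0.542. These values share the ACT and EtOH betas with the comparisons above, and none of the 3 was called against an unscaled normal null (RPUSD3 -3.53, PUS1 -3.39, RPUSD4 -3.26). For RPUSD4 the call also ended after a running median over the EtOH z was removed (-3.38).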

How the results depend on the processing

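No paired analysis was possible because the table holds 1 fitted value per condition and none per replicate, and for the same reason no replicate could be left out. Of the 11 calls of a synthase in a comparison, none changed direction under those of the 10 alternatives that gave a value. Several alternatives change only the threshold, the scale or the genes included, so they could hardly turn a sign. Without date cells PUS1 and PUSL1 had no value in comparisons that use the ACT condition. PUSL1 in ACT against EtOH was lost against an unscaled normal null (3.63), and RPUSD2 there (-3.19) and at an adjusted p of 0.01. The 4 calls in ACT against EtOH became 2 against an unscaled normal null (0.560% of all genes called) and 7 at a z difference of 3 (4.79%). They became 2 without genes whose z stood as a date (0.890%), which removes PUS1 and PUSL1 by construction. The single call in CAP, RPUSD4, became 0 at an adjusted p of 0.01 (0.0889% of all genes called) and against the unscaled null (0.0105%). It also became 0 after either running median (0.0994% over the EtOH z, 0.157% over the mean z). It became 2 at a z difference of 3, plain (1.31%), centred (1.04%) or standardised (1.19%), with PUS7 added. The 0 calls in ACT CAP against EtOH became 1, PUS1, under those same 3 rules (1.46%, 1.07% and 1.17% of all genes called). The 0 in ACT CAP against CAP became 1, RPUSD4, under them (0.246%, 0.272% and 0.481%) and after a running median over the CAP z (0.105%). The 3 calls in ACT against ACT CAP became 1, RPUSD3, against the unscaled null (0.0837% of all genes called) and without date genes (0.598%). The 3 interaction calls became 0 against the unscaled null (0.0837% of all genes called) and 5 at a z difference of 4 (2.67%). They became 7 at a z difference of 3, plain (7.17%), centred (6.73%) or standardised (7.01%). Over all genes, a z difference of 3 took 4.79% of genes in ACT against EtOH and 7.17% in the interaction, against 1.23% and 0.612%. Values of members that were not called changed sign 14 times, none with a call.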
